A study of Mus musculus with 4 samples.

Results

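Foxp1, Bach2, Igf1r, Actn1 and Txk are 5 genes of the naive T cell state, and 9 regions of the deposited methylated-DNA table carry their labels, of 10000 regions in all. The regions were taken by gene label, for genes that were chosen with earlier results of these data known. Igf1r has 5 of the regions and Foxp1, Bach2, Actn1 and Txk have 1 each. The study captured methylated DNA from sorted mouse T cells and sequenced it, with 1 library for each of 4 populations of female Balb/c mice; the labels give no age and no number of animals. The T helper 17 (Th17) population was CD3+ CD4+, low for CD45RB, positive for IL-17A and negative for interferon gamma. The regulatory T cell (Treg) population was CD3+ CD4+ with bright CD25. The T helper 1 (Th1) population was CD3+ CD4+, low for CD45RB, positive for interferon gamma and negative for IL-17A. The naive population was CD3+ CD4+ and high for CD45RB. Every population, naive cells included, had been stimulated for 3 h with PMA (10 ng/ml) together with ionomycin (500 ng/ml), which act past the T cell receptor; Treg cells were sorted before that step and the others after it. Cell population, library and, for Treg, the order of sorting and stimulation cannot be told apart, and there is no replicate of any population.

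A naive T cell is held in a resting state by a set of transcription factors and receptors until its antigen receptor is engaged. Foxp1 is a forkhead transcription factor that keeps naive T cells quiescent. Bach2 is a transcriptional repressor that restrains effector differentiation and is needed for normal Treg cells. Igf1r is the cell-surface receptor tyrosine kinase for insulin-like growth factor 1, Txk is a Tec-family tyrosine kinase that signals downstream of the T cell receptor, and Actn1 is alpha-actinin 1, which crosslinks actin filaments. DNA methylation is a covalent mark on cytosines of CpG sites that is copied at cell division. In introns it can mark regulatory elements that a cell type does not use, and it is also the usual state of most intronic DNA.

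The capture binds methylated CpG sites, so a region's reads rise with its methylation and with its number of CpG sites. In sorted bulk cells, fewer methylated cells and less methylation per cell cannot be told apart. The signal of a region is its number of reads times 1 constant per library. One read was worth 0.352 units in Treg, 1.68 in Th1 and 0.996 in naive, so a Th1 value built on 2 or 3 reads is the least precise. The reads over the table were 74571 in Treg, 19548 in Th1 and 34277 in naive, with medians of 7, 2 and 3 per region. All 9 regions are listed at 0 in Th17, as are all 10000 regions of the table, so Th17 gives no difference among them and no fold is printed against it. Intervals are exact at 95% and cover counting error only. Defining markers were looked up as a check of the labels. Of 5 general T cell, 4 Treg and 4 Th1 marker genes 0 had a region, as did 0 of 4 myeloid and 0 of 4 CD8 and NK markers. Regions were found for Il17a and Ccr6 among the Th17 markers and for Ebf1 and Pax5 among the B cell markers. A methylated region does not report expression of its gene, so the table neither bears out nor contradicts the labelled cell types.

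All 9 regions are intronic in the deposited annotation, which gives no intron number, and coordinates are those of mm9. Introns hold 7865 of the 10000 regions, or 78.7%. The regions were 163 to 312 bp long with a median of 286 bp, against 93 to 790 bp with a median of 249 bp in the table. No promoter or exon region of these 5 genes is in the table. Reads were found in Treg, Th1 and naive alike for 8 of the 9 regions, beside 8592 regions, 85.9%, of the table; Foxp1 was the exception.

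The Foxp1 region (ENSMUSG00000030067, chr6:98934698-98934985, 288 bp) held 13 reads in Treg, 2 in Th1 and 0 in naive. Its signal was 4.58 in Treg (interval 2.44 to 7.84), 3.36 in Th1 (0.407 to 12.1) and 0 in naive (0 to 3.67). The 3 intervals overlap. Methylated DNA of this intron was therefore read in Treg and Th1 and was not detected in naive cells at that depth. No fold is given against the naive 0; the exact interval of the Treg to naive ratio started at 1.08 with no upper limit. The Th1 to naive interval started at 0.317, so 2 Th1 reads against 0 naive reads do not separate those libraries. Regions with no naive read number 161 in the table, 1.61% of it, and 16 of these held at least 13 Treg reads. In Treg, 94.1% of regions had fewer reads than the Foxp1 region. The region has no reads outside Treg and Th1, so it may be listed because of them.

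The Bach2 region (ENSMUSG00000040270, chr4:32528309-32528502, 194 bp) held 8 reads in Treg, 1 in Th1 and 1 in naive. Its signal was 2.82 in Treg (interval 1.22 to 5.56), 1.68 in Th1 (0.0426 to 9.37) and 0.996 in naive (0.0252 to 5.55). The order of the levels matched that of Foxp1, Treg then Th1 then naive, and here too all 3 intervals overlap. The Treg to naive ratio was 2.83 with an interval of 0.379 to 126, which includes 1. With 10 reads in all it was the most thinly read of the 9 regions, and 4.87% of the table had a lower mean signal over the 3 libraries.

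**Figure D1:**
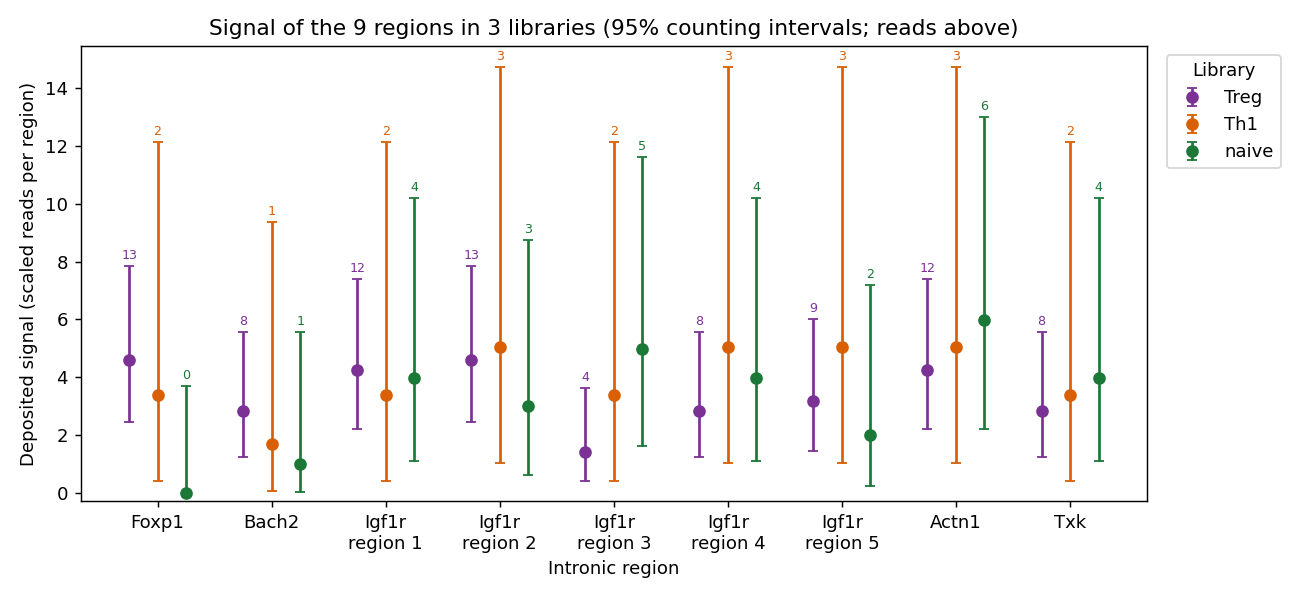
Signal of each of the 9 intronic regions (vertical axis, scaled reads per region) in the Treg, Th1 and naive libraries, 1 library each; points are deposited values, bars exact 95% counting intervals, and the numbers above the bars are reads. The Foxp1 point in naive lies at 0 while its Treg point lies at 4.58, and in each of the 9 regions, Foxp1 included, the 3 bars overlap.

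Actn1 and Txk showed the opposite order from Foxp1 and Bach2, naive then Th1 then Treg, with overlapping intervals throughout. At equal table totals, and with median-of-ratios scaling, Treg stood above Th1 in both regions, with log2 ratios of 0.063 and 0.13 for Actn1 and 0.060 and 0.12 for Txk. The Actn1 region (ENSMUSG00000015143, chr12:81302911-81303217, 307 bp) held 12 reads in Treg, 3 in Th1 and 6 in naive. Its signal was 4.23 in Treg (interval 2.19 to 7.39), 5.04 in Th1 (1.04 to 14.7) and 5.98 in naive (2.19 to 13.01). It had the highest mean signal of the 9 regions and stood at rank 205 of the 10000. Its Treg to naive ratio of 0.708 had an interval of 0.246 to 2.30.

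The Txk region (ENSMUSG00000054892, chr5:73089488-73089650) was the shortest of the 9, at 163 bp, and held 8 reads in Treg, 2 in Th1 and 4 in naive. Its signal was 2.82 in Treg (interval 1.22 to 5.56), 3.36 in Th1 (0.407 to 12.1) and 3.98 in naive (1.09 to 10.2). The Treg to naive ratio was again 0.708, with an interval of 0.190 to 3.21. Read for read this is a common pattern: 98 other regions of the table hold the same 3 read numbers. Set to a length of 250 bp, the Txk signal was 4.32 in Treg, 5.16 in Th1 and 6.11 in naive, the highest naive value of the 9 regions on that scale, ahead of Actn1 at 4.87.

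**Figure D2:**
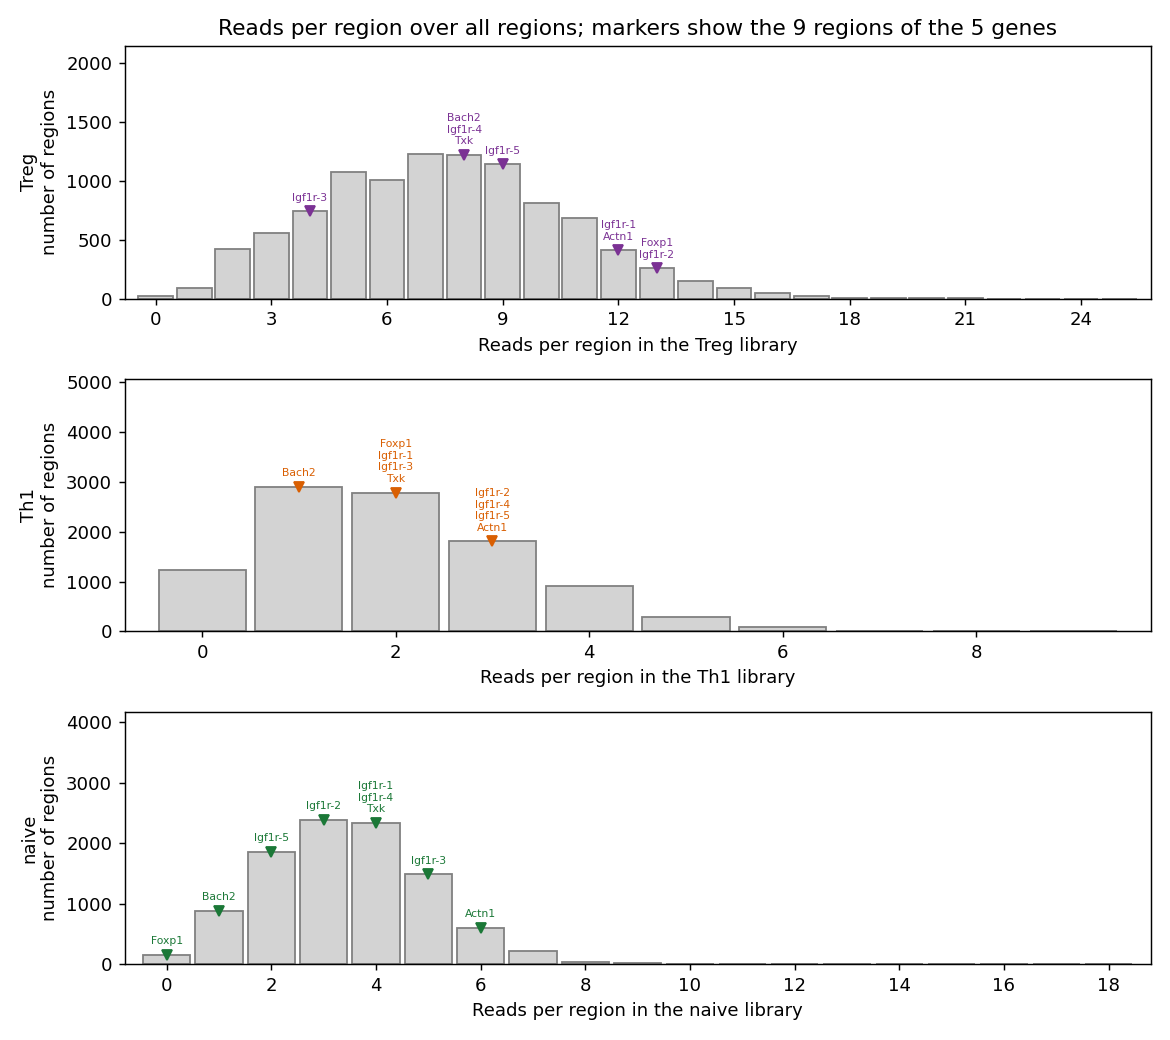
Number of regions (vertical axis) by reads per region (horizontal axis) in the Treg, Th1 and naive libraries, over all 10000 regions; markers and names show where the 9 regions stand, with Igf1r regions numbered by position. Foxp1 stands at 13 reads in Treg and at 0 in naive, where 1.61% of regions stand.

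Igf1r, with 5 regions, was the only one of the 5 genes with more than 1. Of the 5377 gene identifiers of the table, 338, or 6.29%, had at least 5 regions and 63.9% had 1. The 5 regions (ENSMUSG00000005533) span 215 kb of chromosome 7 and are numbered here by position. Region 1 is chr7:75113999-75114235, region 2 chr7:75133874-75134185 and region 3 chr7:75136189-75136474. Region 4 is chr7:75294443-75294745 and region 5 chr7:75328668-75328883. Regions 2 and 3 lie 2.00 kb apart, while 158 kb without a region of the table separates regions 3 and 4. They share a gene and each library, so they are not replicates of a condition.

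Region 1 held 12 reads in Treg, 2 in Th1 and 4 in naive, with signals of 4.23, 3.36 and 3.98 in Treg, Th1 and naive. Region 2 held 13, 3 and 3 reads in that order, with signals of 4.58, 5.04 and 2.99. Region 3 held 4, 2 and 5 reads, with signals of 1.41, 3.36 and 4.98. In Treg, region 3 was the lowest of the 9 regions (interval 0.384 to 3.61) and its close neighbour, region 2, shared the highest value with Foxp1 (2.44 to 7.84), and these intervals overlap. In naive cells region 3 was the higher, at 4.98 (1.62 to 11.6), with region 2 at 2.99 (0.616 to 8.73), again with overlap.

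Region 4 held 8 reads in Treg, 3 in Th1 and 4 in naive, with signals of 2.82, 5.04 and 3.98 in Treg, Th1 and naive. Region 5 held 9, 3 and 2 reads in the same order, with signals of 3.17, 5.04 and 1.99. Within the gene, Th1 was highest in regions 2, 4 and 5, Treg in region 1 and naive in region 3, and the intervals of the libraries overlapped in each region. Over the 5 regions together the mean signal was 3.24 in Treg (46 reads, interval 2.37 to 4.33), 4.37 in Th1 (13 reads, 2.33 to 7.47) and 3.59 in naive (18 reads, 2.13 to 5.67). The Treg to naive ratio of these sums was 0.904 (0.514 to 1.66) and the Th1 to naive ratio 1.22 (0.549 to 2.63), so the Igf1r regions as a whole did not separate the libraries beyond counting error.

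**Figure D3:**
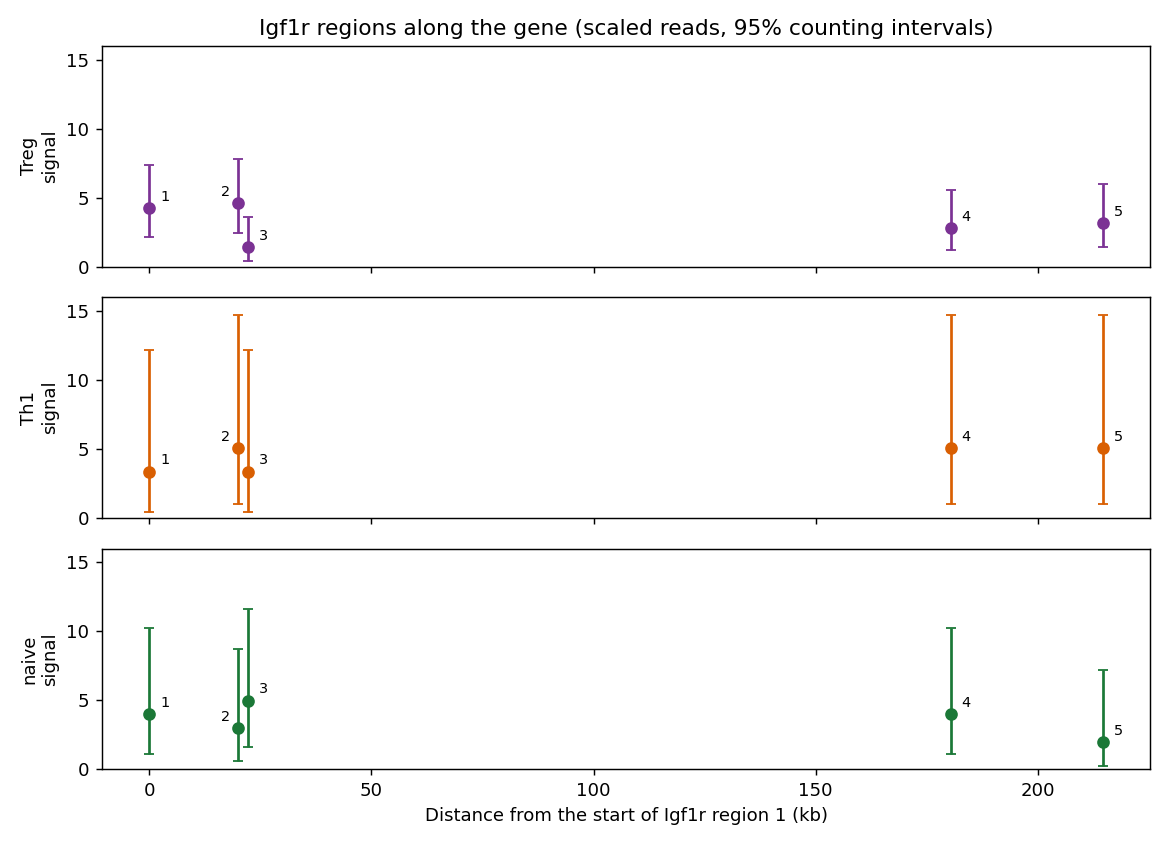
Signal (vertical axis, scaled reads per region) of the 5 Igf1r regions against distance from the start of region 1 (kb), in the Treg, Th1 and naive libraries; points are deposited values and bars exact 95% counting intervals. Region 3 is the lowest in Treg, at 1.41, and the highest in naive, at 4.98.

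Differences between libraries were counted by size, since 1 library per population allows no test. A region counted as higher or lower where the log2 ratio of the signals, with 0.5 added to each, was at least 1 in size. Treg against naive had 2 of the 9 regions higher, Foxp1 and Bach2, where 8.33% of the table was higher, and 1 lower, Igf1r region 3, where 22.2% of the table was lower. The log2 ratios were 1.15 for Bach2 and -1.52 for Igf1r region 3; that of Foxp1, 3.35, depends on the value added to its naive 0. In Th1 against naive 2 regions were higher, Foxp1 and Igf1r region 5 (log2 ratio 1.15), beside 19.4% of the table, and 0 were lower, beside 29.0%. In Treg against Th1 0 were higher, beside 17.0%, and Igf1r region 3 was lower (log2 ratio -1.02), beside 21.0%. That last call was lost at equal table totals (-0.78), with median-of-ratios scaling (-0.71), with 5 added in place of 0.5 (-0.38) and at a threshold of 1.5. With 5 added, no region passed in any of the 3 comparisons, but this was fixed by the value added. A call then needs a signal of at least 5, even against 0. The highest signals of the 9 regions were 4.58 in Treg, 5.04 in Th1 and 5.98 in naive. Regions with those Th1 and naive values had 1.99 or more in the other libraries. At a threshold of 1.5 the calls of Bach2 and Igf1r region 5 were lost too. The 2 comparisons with naive share the naive library, so the Foxp1 calls in both rest on the same 0.

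The same ratios were then set against counting error. A region was called where the exact interval of the ratio excluded 1, taken per region and not adjusted for the 10000 regions. Foxp1 was the 1 region of the 9 called higher in Treg than in naive, beside 0.220% of the table. With 13 Treg reads or fewer, no region with a naive read could be called higher. All of the 9 regions except Foxp1 had a naive read, so their lack of a higher call was fixed by depth. Lower were 0, beside 4.45%. The Foxp1 region had reads in Treg and Th1 only, so those reads may be why it is listed. How regions were chosen is not stated, so its interval and the 0.220% may both reflect that choice. Th1 against naive gave 0 higher and 0 lower, beside 0.730% and 0.150% of the table. Treg against Th1 also gave 0 higher and 0 lower, beside 0% and 2.83%. The 9 regions held 1 to 3 Th1 reads, 0 to 6 naive reads and 4 to 13 Treg reads. At these read numbers no interval of either comparison with Th1 could exclude 1. Those counts of 0 were therefore fixed by depth, and show neither a difference nor its absence. The interval of the Treg to naive ratio for Igf1r region 3, a ratio of 0.283, ran from 0.0562 to 1.32.

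**Figure D4:**
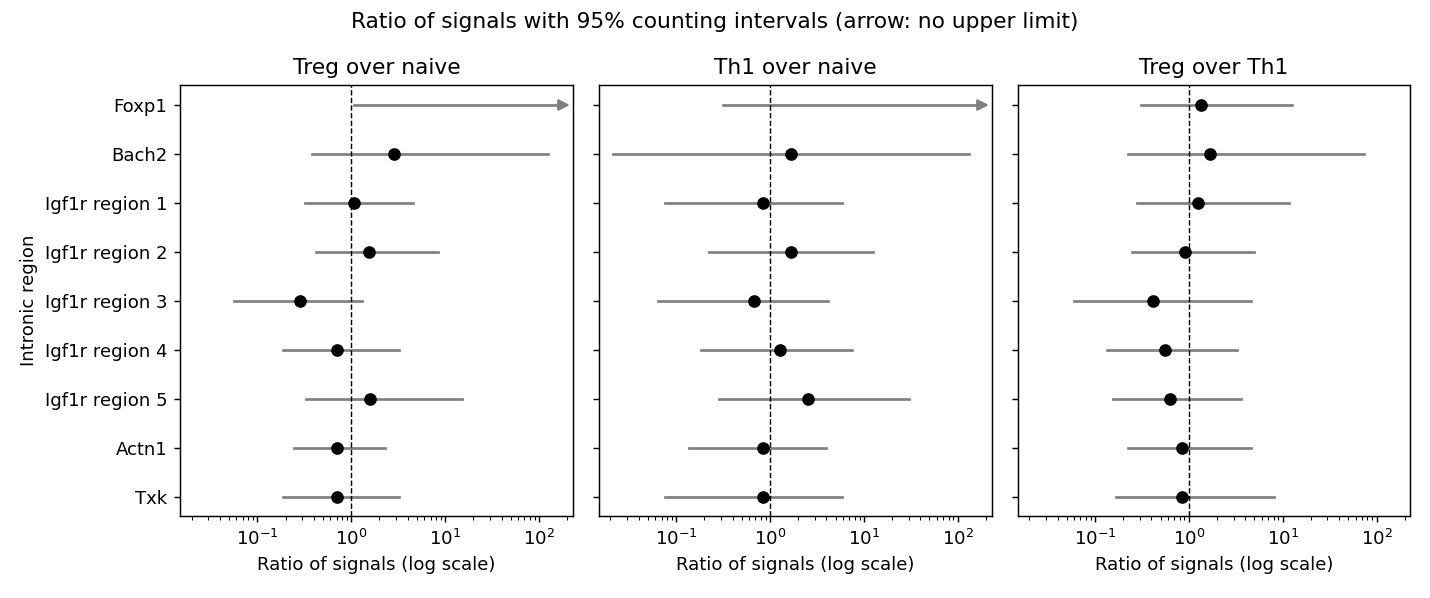
Ratio of signals (horizontal axis, log scale) of Treg over naive, Th1 over naive and Treg over Th1 for the 9 regions; points are ratios, lines exact 95% counting intervals, an arrow marks an interval with no upper limit, and no point is drawn for Foxp1 over its naive 0. The Foxp1 line in Treg over naive starts at 1.08, and each of the other lines crosses 1.

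Taken over the 9 regions, the mean signal was 3.41 in Treg (87 reads, interval 2.73 to 4.20), 3.92 in Th1 (21 reads, 2.43 to 5.995) and 3.21 in naive (29 reads, 2.15 to 4.61). Over the whole table it was 2.63 in Treg, 3.29 in Th1 and 3.41 in naive. The median log2 ratio of Treg to naive was 0.077 over the 9 regions and -0.29 over the table, that of Th1 to naive 0.31 and -0.19, and that of Treg to Th1 -0.22 in both. Treg, Th1 and naive each had the highest signal in 3 of the 9 regions. In the table Treg was highest in 17.6% of regions, Th1 in 39.7% and naive in 42.7%. The level of Treg depends on the deposited scaling: bringing the libraries to equal table totals adds 0.38 to each log2 ratio of Treg to naive before the 0.5 is added, and 0.32 to each of Treg to Th1.

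Other genes of the naive T cell state were read from a list of 25, which includes the 5 genes. Only Foxo1 and Pdk1 of the other 20 had a region, both exonic, so 7 of 25 genes and 11 regions are in the table. Foxo1 encodes a forkhead factor that sustains homing and interleukin 7 receptor genes in naive T cells. Its exon 3 region (chr3:52153063-52153277) held 6 reads in Treg, 2 in Th1 and 4 in naive, with signals of 2.11, 3.36 and 3.98, the same order as in Actn1 and Txk. Pdk1 encodes a kinase that inhibits pyruvate dehydrogenase. Its exon 11 region (chr2:71741206-71741492) held 12 reads in Treg, 1 in Th1 and 4 in naive, with signals of 4.23, 1.68 and 3.98. By size, the 11 regions gave 2 higher and 1 lower in Treg against naive, 2 higher and 1 lower in Th1 against naive, and 1 higher and 1 lower in Treg against Th1. The shares of the table called higher and lower were 8.33% and 22.2%, 19.4% and 29.0%, and 17.0% and 21.0% in that order of comparisons. The additional calls were Pdk1, lower in Th1 than in naive (log2 ratio -1.04) and higher in Treg than in Th1 (1.12). Ccr7, Il7r, Klf2, S1pr1, Lef1 and Tcf7, genes of naive T cell homing, survival and identity in the list, had no region in the table, which does not show how they were methylated.

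Regions of other genes with the nearest pattern were sought by the distance between log2 signals over Treg, Th1 and naive. Since few reads give few patterns, 8 of the 9 regions had an identical match in reads, in 4 to 98 other regions each. For Foxp1 none was identical; the nearest, 1 of 3 at a distance of 0.097, was an intron of Gm13067 with 14 reads in Treg, 2 in Th1 and 0 in naive. For Bach2 the match closest in length among 20 was an intron of Vav3, and for Actn1, among 4, an intron of Gm17523. The Txk match was an intron of Kif26a. The matches of Igf1r regions 1 to 5 were in Gnl3, Slc12a8, Mllt3, C330018A13Rik and 4922501L14Rik, in that order.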

How the data were processed

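Per the labels' protocols, a MethylCap kit enriched the methylated DNA of each population before sequencing. Bowtie 0.12.7, FastQC and mm9 appear in the submitters' processing notes without a stated role. How the regions were called and chosen, and how the libraries were scaled, is likewise not stated. The authors deposited 1 signal per region and library. From the values, 100% of the Treg, Th1 and naive signals are whole multiples of 1 constant per library (relative tolerance 1e-06), and each multiple is taken here as 1 read. The Th17 signal is 0 in all 10000 regions, so its depth is unknown. One other deposited column, a signed distance per region, was not used. No region sequence was used.

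With 1 library per population no test between populations was run, and no p-value is given. Signals have exact Poisson intervals and ratios have intervals from the exact Clopper-Pearson interval of one library's share of the reads, at 95%, in Python 3.11.15 with scipy 1.17.1; they were tested on simulated data. All intervals and calls were computed over the 10000 regions. Named are each region of the 5 genes, each other gene of the naive T cell list with a region, the region nearest in pattern and the nearest region of another gene on each side. The genes and lists were chosen with earlier results of these data known. Names and gene neighbours were looked up in a RefSeq table of GRCm38.p6, used for no coordinate. Some items that these rules name are not reported here.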

Additional observations from a re-analysis of the deposited data

How the results depend on the processing

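The counts by size were recomputed with a pseudocount of 5, a log2 threshold of 1.5, equal table totals, median-of-ratios scaling and a minimum of 10 reads per region, which all 9 regions met. With a pseudocount of 5, no region passed. There were 0 higher and 0 lower in Treg against naive, 0 higher in Th1 against naive and 0 lower in Treg against Th1. A call then needs a signal of at least 5 even against 0, so at these signals the outcome was fixed by the pseudocount. The log2 ratio of Foxp1 was then 0.94 in Treg against naive and 0.74 in Th1 against naive. With a threshold of 1.5, 1 region (Foxp1) was higher in Treg and 1 (Foxp1) in Th1, each against naive. Igf1r region 3 stayed lower in Treg than in naive (log2 ratio -1.52), and 0 were lower in Treg against Th1. Igf1r region 3 was no longer lower in Treg than in Th1 under equal table totals (0 lower, log2 ratio -0.78) or median-of-ratios scaling (0 lower, -0.71). Under these scalings the log2 ratios of Treg to Th1 of Igf1r region 2, Actn1 and Txk, none of which passed the size rule, were above 0: 0.17, 0.063 and 0.060 at equal table totals, and 0.23, 0.13 and 0.12 with median-of-ratios. The naive T cell list was also counted with 1 region per gene, that with the most reads over the 3 libraries. For Igf1r this kept region 2, with 19 reads, and left out regions 3 and 5. The list then gave 0 lower in Treg against naive, 1 higher in Th1 against naive and 0 lower in Treg against Th1. Set to 250 bp, each of the 27 signals stayed within its counting interval. At lengths of 163 to 312 bp and these read numbers the intervals are too wide for any other outcome. The order of regions did change: the highest Treg value was then Igf1r region 1 at 4.46, with Foxp1 at 3.98 and Igf1r region 2 at 3.67. No paired analysis was possible because there is 1 library per population. With 1 to 3 Th1 reads per region, even the Th1 to naive ratio of 2.53 in Igf1r region 5 had an interval of 0.290 to 30.3, so a difference of that size was not detectable at this depth.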

Other observations

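The nearest regions of other genes were far from most of the 9 regions. Txk was the closest to one: an intron of Tec, the gene next to it in RefSeq and a kinase of the same family, had a region 89.9 kb away (chr5:73179546-73180018). That region held 9 reads in Treg, 2 in Th1 and 4 in naive, with signals of 3.17, 3.36 and 3.98. The Txk region held 8, 2 and 4 reads. Those Txk read numbers recur in 98 other regions of the table, so a near match with Tec is not particular to this pair. On its other side the Txk region had an intron of Corin at 219 kb, with 11 reads in Treg, 2 in Th1 and 3 in naive.

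The Foxp1 region lay 518 kb from a region of its neighbour gene Eif4e3, which held 8 reads in Treg, 5 in Th1 and 4 in naive, and 717 kb from a region of its other neighbour gene, Gm765, which held 6 reads in Treg, 0 in Th1 and 6 in naive. Both neighbours had naive reads where Foxp1 had none, but only 1.61% of the table had no naive read, so that is the usual state of a region. Bach2 had an intron of Mdn1 at 332 kb, with 6, 4 and 2 reads in Treg, Th1 and naive, and on its other side an intron of 4930556G01Rik at 1805 kb, with 7, 3 and 4. The Actn1 region, with 6 naive reads, lay between introns of Galntl1 (324 kb; 7, 3 and 1 reads in Treg, Th1 and naive) and Rad51l1 (447 kb; 12, 2 and 1). The Igf1r regions lay between a 4833412C05Rik intron, 166 kb from region 1 with 8, 2 and 5 reads in Treg, Th1 and naive, and an Arrdc4 exon, 553 kb from region 5 with 8, 2 and 4.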
